A study of Populus ussuriensis with 9 samples.

Results

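Leaves of the poplar Populus ussuriensis line OE18, in which LbDREB6 is overexpressed at a high level, were set against leaves of the line OE14, in which it is overexpressed at a moderate level. The comparison covered 22848 of the 29764 loci in the table, namely those that reached 1 FPKM in at least 3 libraries out of the 9 of the series. FPKM is the number of fragments per kilobase of gene, scaled to the fragments counted in the library. There were 3 libraries of OE18, 3 of OE14 and 3 of wild type (WT). The WT values enter below as a level beside those of the lines and through the estimate of the spread. They also count in the choice of tested genes and in the mean level by which genes are classed. All plants were 6 months old, grown in a greenhouse and short of water when fully expanded leaves were taken. The labels differ on how long water had been withheld, with 1 week in the protocol and 2 weeks in the sample descriptions. No watered plants were analysed here, so the values describe the lines under drought and not their response to it. Each level of overexpression was carried by 1 line, and the level of LbDREB6 and other differences between the lines, such as the place of the insertion, cannot be told apart. The promoter of the transgene is not given in the sources used here. LbDREB6 itself was not analysed, so the labelled levels of overexpression were not checked. The 3 columns headed with C and a number were taken as WT because it is the group that remains. The table gives locus IDs without names or descriptions, so no role is given to a locus and the leaf tissue was not checked against marker genes. In RNA from whole leaves, fewer cells of a type and less RNA per cell cannot be told apart.

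DREB proteins are plant transcription factors of the AP2/ERF family. They bind the dehydration-responsive element, a short motif in the promoters of many genes induced by drought, cold or salt, and act mostly as activators of these genes. In Arabidopsis, strong constitutive expression of DREB genes is known to raise stress-responsive transcripts and can slow growth. A pair of lines labelled with different levels of the same factor shows the size of the difference in leaf transcripts between these lines. With 1 line per level, that difference cannot be ascribed to the level itself.

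Library depth ran from 10988010 to 13653249 reads in OE18, from 11707298 to 16221919 in OE14 and from 11324024 to 13389816 in WT, as recovered from the steps in the FPKM values. Replicates were close to each other in both lines. The median SD of log2(FPKM + 1) over the tested genes was 0.0974 in OE18, 0.0914 in OE14 and 0.091 in WT, and it was larger in OE18 than in OE14 for 53.3% of the genes. Across genes, which are not independent replicates, Pearson's r between libraries on this scale was 0.806 to 0.813 for the 9 pairs of an OE18 with an OE14 library, against 0.991 to 0.994 for pairs within a line. The labels do not say whether the libraries came from separate plants beyond calling them biological replicates. The p-values below set a difference between the lines against the spread between these libraries. Such p-values do not cover the spread between independent lines of the same level.

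Most transcripts differed between the lines, and large differences were mostly rises in OE18. limma called 17745 genes at an adjusted p under 0.05, which is 77.7% of the genes. Their median log2 fold change was 0.73 in absolute size. On the deposited scale 8869 were higher in OE18 (38.8%) and 8876 lower (38.8%). This balance depended on the scaling, with 7949 higher and 10213 lower after quantile normalization and 8223 higher and 9720 lower when all libraries were rescaled to the same summed FPKM. The division changed with the size of the difference. Rises made up 63.2% of the called differences of 2-fold or more, with 3690 rises (16.2% of the tested genes) and 2146 falls (9.39%). They made up 78.0% from 4-fold on, with 1024 rises (4.48%) and 288 falls (1.26%). From 8-fold on the share was 87.4%, with 297 rises (1.3%) and 43 falls (0.188%). From 16-fold on it was 95.1%, with 98 rises (0.429%) and 5 falls (0.0219%). For 79.1% of the genes the libraries of the lines did not overlap, with all OE18 libraries above all OE14 libraries in 39.5% and below them in 39.6%. Quantile normalization, by which all libraries share 1 distribution of values, moved the median log2 fold change of all tested genes to -0.12, against -0.01 without it, and under it 53.5% of the genes of 2-fold or more and 71.1% of those of 4-fold or more were higher. Without any filter on low values, 3731 genes were 2-fold or more higher and 2152 lower, with 1024 and 288 at 4-fold or more. A set of 1019 genes passed the filter only through the 3 OE18 libraries and had to be higher there. Another 88 genes passed it only through the 3 OE14 libraries. Without both sets, 2886 genes were 2-fold or more higher and 2100 lower. Genes at 1 FPKM or more in both OE14 and WT were in neither set, so this choice took out mostly rises.

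Genes with a narrow difference were also common. The 95% interval of the difference lay within 2-fold on either side for 14639 genes (64.1%) and within 1.5-fold for 7895 (34.6%). These intervals are for single genes and were not widened for the number of genes. They are on the log2(FPKM + 1) scale, which shrinks differences at low levels, so genes at low levels fall within these bounds more easily. Of the 7895 genes within 1.5-fold, 3344 were called, so a call by itself did not mark a large difference.

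**Figure D1:**
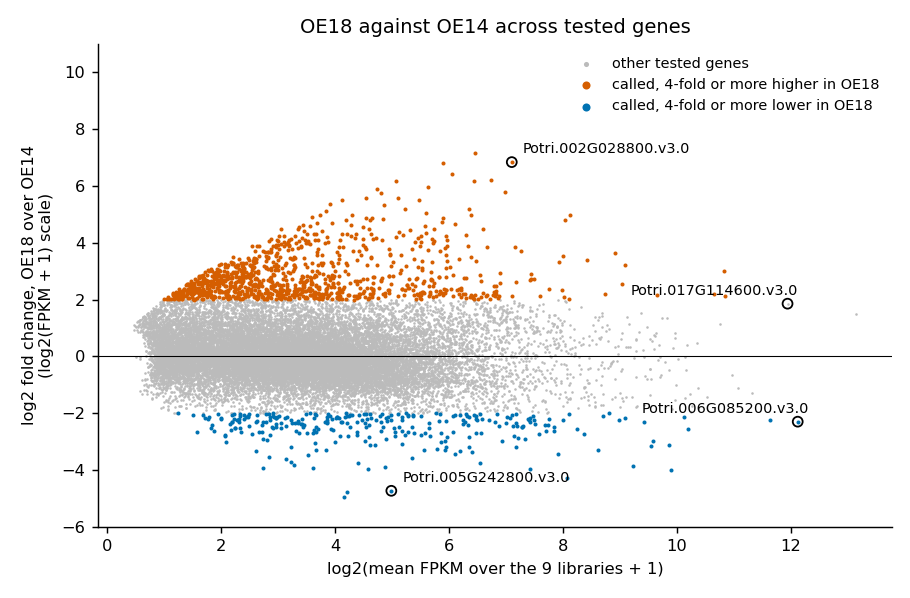
Each point is 1 of the 22848 tested genes. The horizontal axis is the log2 of its mean FPKM over the 9 libraries plus 1, and the vertical axis is the log2 fold change of OE18 over OE14 on the log2(FPKM + 1) scale. Genes called at 4-fold or more are coloured, 1024 higher and 288 lower in OE18. The 4 loci described in the text are circled, and the upper cloud reaches farther from 0 than the lower one.

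The 98 genes that were 16-fold or more higher in OE18 mostly had low levels in OE14 and WT. Their mean FPKM had a median of 66.3 in OE18, against 1.35 in OE14 and 0.632 in WT, and 41 of them were under 1 FPKM in OE14. In OE18, 34 of them reached 100 FPKM or more, and in OE14 none did, with 26.3 FPKM as the highest mean. Among the 297 genes of 8-fold or more, the median was 30.1 FPKM in OE18, 1.1 in OE14 and 0.569 in WT. The 43 genes that were 8-fold or more lower in OE18 had a median of 5.1 FPKM in OE18, 59.3 in OE14 and 35.3 in WT. Because these genes were chosen by a large fold difference, low levels in the lower line were favoured, and the levels are a description. The rises of 8-fold or more were spread over the 19 chromosomes and the unplaced loci.

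The 2 rises and 2 falls named here were the called genes without overlap that had the largest fold, with both line means at 1 FPKM or above, and those that had the largest difference in FPKM. Over all tested genes log2 fold changes ran from -4.94 to 7.17. Under this rule the largest fold rise was that of Potri.002G028800.v3.0 on chromosome 2, a locus of 748 bases. It had 422, 405 and 388 FPKM in OE18, against 2.63, 2.55 and 2.43 FPKM in OE14 and 1.4, 1.04 and 2.24 FPKM in WT. The OE18 libraries lay far above all others, while OE14 was close to the WT range and above it. The mean was 405 ± 16.8 FPKM in OE18 and 2.54 ± 0.0977 FPKM in OE14 (SD, n = 3 each), a 159-fold ratio, and a log2 difference of 6.84 with an SE of 0.12 and a Benjamini-Hochberg adjusted p of 2.1e-14 by limma. The values rested on 11560 reads in OE18 and 81 in OE14. Among the tested genes the locus stood at rank 113 by level in OE18 and at rank 17805 in OE14.

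Under the same rule the largest fold fall was that of Potri.005G242800.v3.0 on chromosome 5, a locus of 1745 bases. It had 1.71, 1.39 and 1.77 FPKM in OE18, against 72.9, 62.3 and 70.9 FPKM in OE14 and 23.3, 20.7 and 21.5 FPKM in WT. The WT libraries lay between the lines, so the lines stood on opposite sides of WT and no groups overlapped. The mean was 1.62 ± 0.207 FPKM in OE18 and 68.7 ± 5.62 FPKM in OE14 (SD, n = 3 each), 42.4-fold lower in OE18, and a log2 difference of -4.73 with an SE of 0.08 and a Benjamini-Hochberg adjusted p of 1.3e-14 by limma. The values rested on 107 reads in OE18 and 5088 in OE14.

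By difference in FPKM, the largest rise was that of Potri.017G114600.v3.0 on chromosome 17, a locus of 1583 bases. It had 8677, 8033 and 7560 FPKM in OE18, against 2220, 2274 and 2199 FPKM in OE14 and 1464, 1464 and 1469 FPKM in WT. The levels were in the order OE18, OE14, WT with no overlap. The mean was 8090 ± 561 FPKM in OE18 and 2231 ± 38.7 FPKM in OE14 (SD, n = 3 each), and a log2 difference of 1.86 with an SE of 0.051 and a Benjamini-Hochberg adjusted p of 7.8e-13 by limma. It made up 1.45% of the summed FPKM in OE18, against 0.424% in OE14, and was the second most abundant locus in OE18 and the 8th in OE14.

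The largest fall by difference was that of Potri.006G085200.v3.0 on chromosome 6, a locus of 1259 bases. It had 1466, 1393 and 1338 FPKM in OE18, against 6838, 7061 and 6752 FPKM in OE14 and 5184, 4966 and 5023 FPKM in WT. OE14 was highest and OE18 lowest, again with WT between them. The mean was 1399 ± 64.3 FPKM in OE18 and 6884 ± 160 FPKM in OE14 (SD, n = 3 each), and a log2 difference of -2.30 with an SE of 0.048 and a Benjamini-Hochberg adjusted p of 6e-14 by limma. The locus was the most abundant of all in OE14, at 1.31% of the summed FPKM, and stood at rank 15 in OE18, at 0.25%.

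**Figure D2:**
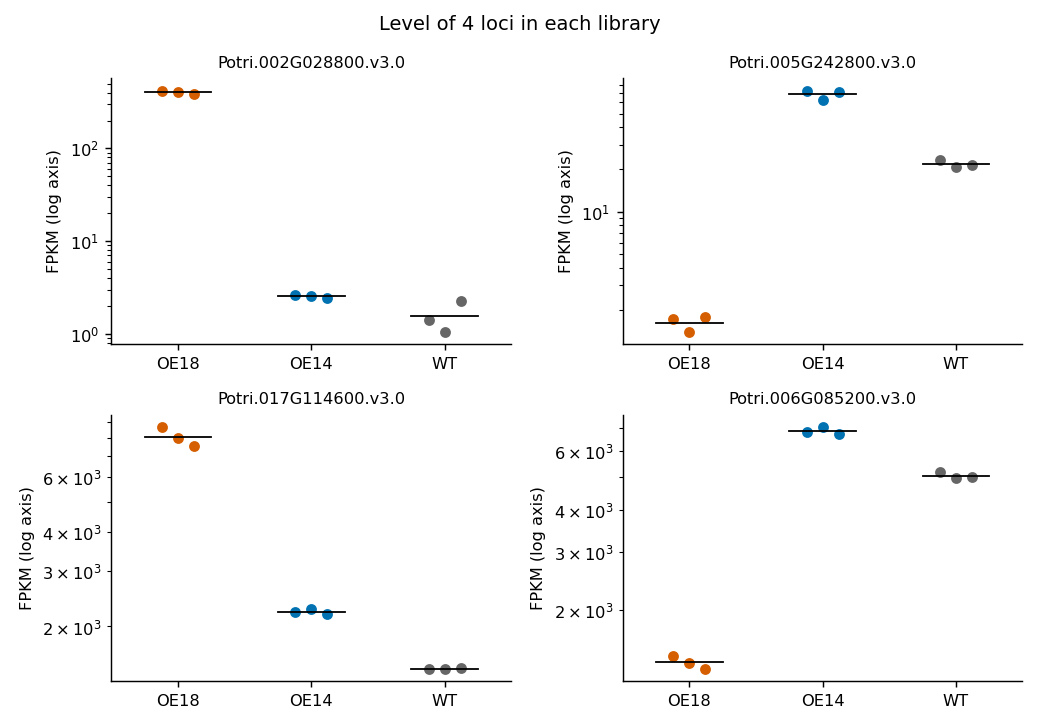
The level of 4 loci in each library, in FPKM on a log axis, with OE18, OE14 and WT from left to right. Points are libraries and lines are means of 3. In each panel the OE18 libraries stand apart from the OE14 libraries, and for Potri.005G242800.v3.0 and Potri.006G085200.v3.0 the WT libraries lie between them.

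The genes that differed made up a large share of the transcripts. The 3690 genes that were 2-fold or more higher held 35.2%, 34.8% and 36.8% of the summed FPKM in the OE18 libraries, against 11.4%, 10.4% and 10.6% in the OE14 libraries. The 2146 genes that were 2-fold or more lower held 8.28%, 8.32% and 8.09% in OE18, against 27.7%, 28.5% and 28.2% in OE14. In WT the shares were 11.7% ± 0.585 and 26.4% ± 0.319 (SD, n = 3), closer to OE14. All other tested genes held 55.9% ± 0.92 in OE18 and 60.8% ± 0.187 in OE14 (SD, n = 3 each). Since these genes were chosen by their difference, the shares are a description.

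The list of the most abundant transcripts was also partly exchanged. The 10 most abundant loci of OE18 and of OE14 had 4 in common, the 100 most abundant had 57 and the 1000 most abundant had 562. Of the 43 loci that were among the 100 most abundant in OE18 and not in OE14, 29 were called 2-fold or more higher and 14 of these 4-fold or more. Over all tested genes these shares were 16.2% and 4.48%, but loci chosen for being in the list of OE18 alone had to lean higher, so the counts are a description. Their median rank in OE14 was 189, and the lowest was 4296. Of the 43 that were in the OE14 list and not in the OE18 list, 34 were called 2-fold or more lower and 13 of these 4-fold or more, a direction that the choice likewise favoured. Their median rank in OE18 was 312, and the lowest was 4275. The exchange left the concentration of the pool much as it was. The 100 highest loci of a library held 20.2%, 19.4% and 22.2% of the summed FPKM in OE18, against 20.9%, 20.3% and 20.0% in OE14, and the ranges overlapped.

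A single locus on chromosome 13, of 849 bases, set the highest of these values and was singled out after its values were seen. It had 8284, 6804 and 24984 FPKM in OE18, against 8723, 1744 and 4078 FPKM in OE14 and 5423, 11697 and 9922 FPKM in WT. It varied widely within every group, and the lines overlapped, yet it was among the 3690 genes called 2-fold or more higher. It took 4.45% of the summed FPKM in the third OE18 library, and 1.47% and 1.23% in the other OE18 libraries. Without it the 100 highest loci held 19.1%, 18.5% and 18.7% in OE18, against 19.7%, 20.1% and 19.4% in OE14, which did not overlap. With 3 libraries on each side, no exact permutation p can be smaller than 0.1, and such single measures were left without a test. Without this locus, the genes of 2-fold or more higher held 33.2% ± 0.76 in OE18 and 9.87% ± 0.134 in OE14 (SD, n = 3 each).

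On the log2(FPKM + 1) scale, differences of 2-fold or more were most frequent among the most abundant transcripts. The tested genes were ranked by mean FPKM over the 9 libraries and divided into 10 classes of equal size. This scale shrinks differences at low levels, so the low classes reach 2-fold less easily and the trend with level depends on it. With a pseudocount of 0.1, 4511 tested genes were 2-fold or more higher and 2953 lower, and these were not divided by class. The most abundant class, with a median of 75.2 FPKM, held 514 genes that were 2-fold or more higher (22.5% of the class, beside 16.2% over all genes) and 447 that were lower (19.6%, beside 9.39%). In the ninth class, with a median of 30.2 FPKM, 13.7% were higher and 15.1% lower, and in the eighth, with a median of 19.2 FPKM, 10.8% were higher and 11.4% lower. In the lowest class, with a median of 1.07 FPKM, 464 genes were higher (20.3%) and 93 lower (4.07%). However, 626 genes of that class had passed the filter through the OE18 libraries alone, and 85 through the OE14 libraries alone, and their direction was fixed by it. Without such genes the lowest class had 53 higher (3.37%) and 50 lower (3.18%), beside 13.3% and 9.66% over the 21741 genes left. The second class then had 12.4% higher and 6.79% lower, and the third 15.4% and 7.5%. The median log2 fold change of the lowest class relative to all genes was 0.24 with these genes and 0.06 without them. That of the ninth class was -0.19 with them and -0.15 without them, and -0.08 after quantile normalization with all genes kept. Leaving the genes out was an alternative chosen after seeing the data. It took out mostly rises by its rule, as genes at 1 FPKM or more in both OE14 and WT were kept. Whether the filter made the lead in the lowest class was not tested.

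Gene length went with the direction. Lengths were recovered for 21148 tested genes with at least 200 reads over the 9 libraries, and 33.8% of them were multiples of 3, so they were not coding lengths. In the class of the longest genes, with a median of 4113.5 bases, 155 genes were 2-fold or more higher in OE18 (7.33%) and 226 lower (10.7%). In the class of the shortest, with a median of 846 bases, 492 were higher (23.2%) and 320 lower (15.1%). The share of lower genes at 2-fold or more was 7.11% to 9.83% in the 8 classes between, below both ends. At 4-fold or more, 87 genes were lower in the shortest class (4.1%) and 6 in the longest (0.284%), and 168 and 43 were higher. The median log2 fold change relative to all genes was highest in the second class, at 0.18 for a median length of 1171 bases, and lowest in the longest class, at -0.26. Across genes Spearman's rho between length and log2 fold change was -0.12. The first OE18 library stood apart in this, with -0.37 against the mean of OE14 in the longest class, while the other OE18 libraries had -0.22 and -0.23. The median level of the length classes ran from 8.91 to 10.8 FPKM.

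**Figure D3:**
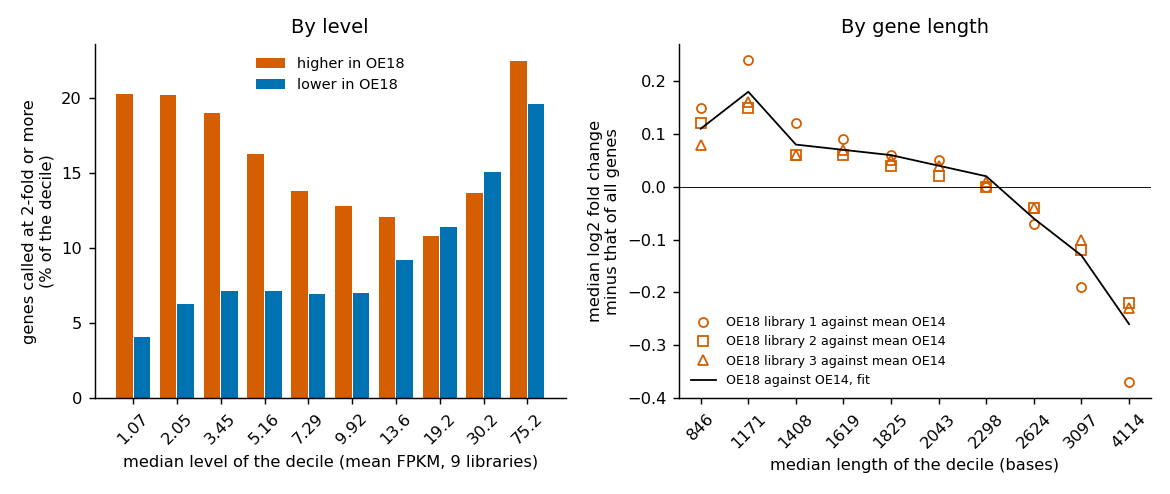
Left, the share of genes called at 2-fold or more in OE18 against OE14, by class of mean FPKM, with bars for higher and lower genes. Right, the median log2 fold change relative to all genes by class of gene length in bases, as a line for the fit and as points for each OE18 library against the mean of OE14. In the lowest class the bars stand at 20.3% higher and 4.07% lower, with genes that passed the filter through 1 line alone included. The longest class lies at -0.26.

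Some transcripts were present in 1 line and without a read in the other. At 1 FPKM or more in all 3 OE18 libraries, 41 loci had no read in any OE14 library. In the other direction, 11 loci at 1 FPKM or more in all 3 OE14 libraries had no read in OE18. The 41 loci had mean levels of 1.16 to 111 FPKM in OE18, with a median of 2.86, and rested on a median of 108 reads. With 3 reads over the 3 libraries as the upper limit for OE14, they were at least 8.23-fold to at least 1250-fold higher in OE18, with a median bound of 40.4-fold. Only 2 of them had a mean of 10 FPKM or more, and both were unplaced loci that were also present in WT. Of the 41, 21 had no read in WT either, 4 were at 1 FPKM or more in all 3 WT libraries and 16 had WT values between these. The 41 loci fell on 16 chromosomes and on unplaced sequence, which held 6 of them. The 11 loci without a read in OE18 had mean levels of 1.49 to 14.3 FPKM in OE14, with a median of 2.52, and were at least 30.9-fold to at least 173-fold lower in OE18. None of the 11 was without a read in WT, and 7 were at 1 FPKM or more in all 3 WT libraries. The limits cover only the counting error in the line without a read, and the reads of the other line were taken as exact. Reads of near-identical copies could be assigned to either, and how the counting treated them is not given in the sources used here, so the absence of reads from single loci, unplaced ones above all, is uncertain.

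The WT level of the genes that differed lay mostly near that of OE14. Of the 3690 genes 2-fold or more higher in OE18, 2871 (77.8%) had a WT mean within 2-fold of OE14 and not of OE18, and 100 (2.71%) had one within 2-fold of OE18 and not of OE14, on the log2(FPKM + 1) scale. Another 470 (12.7%) were within 2-fold of both, and 249 (6.75%) of neither. The median levels of the 3690 genes were 13.9 FPKM in OE18, 3.04 in OE14 and 2.57 in WT. Of the 2146 genes 2-fold or more lower, 1236 (57.6%) were near OE14 only, 178 (8.29%) near OE18 only, 656 (30.6%) near both and 76 (3.54%) near neither. Their median levels were 7.03 FPKM in OE18, 20.4 in OE14 and 18.2 in WT. In rises and falls alike the WT mean lay mostly below that of OE14, by any margin. For 2229 of the rises (60.4%) it did, so the means ran WT, OE14, OE18 from low to high. For 1459 of the falls (68.0%) WT lay between the lines, so again below OE14, and for 634 (29.5%) it lay above OE14. The share of all tested genes with WT below OE14 was not counted, so no order by level of overexpression is read from these counts. Among falls of 4-fold or more, 223 of 288 (77.4%) had WT between the lines, as Potri.005G242800.v3.0 and Potri.006G085200.v3.0 did. Among rises of 4-fold or more, 728 of 1024 (71.1%) had WT below OE14. Because the genes were chosen by the difference between the lines, these counts are a description and were not tested.

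**Figure D4:**
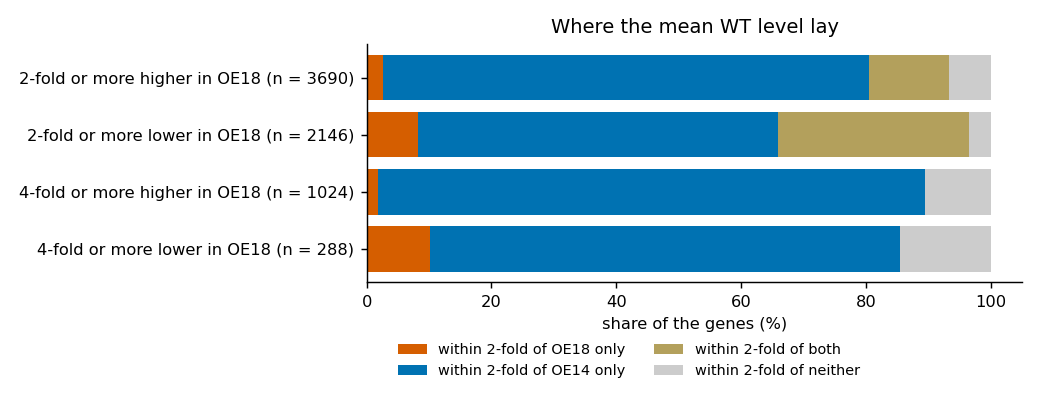
Shares of the genes called in OE18 against OE14, by whether the mean WT level was within 2-fold of the OE18 mean, of the OE14 mean, of both or of neither on the log2(FPKM + 1) scale. Rows are the genes of 2-fold and of 4-fold or more, higher and lower in OE18. The share near OE14 alone is the largest in every row, from 57.6% to 87.7%.

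The differences were found on every chromosome. Chromosomes were read from the IDs, and positions follow the order of the IDs. Per chromosome, from 13.5% of the tested genes (chromosome 8) to 19.9% (chromosome 5) were 2-fold or more higher in OE18, against 16.2% over all, and from 7.18% (chromosome 7) to 12.8% (chromosome 18) were lower, against 9.39% over all. The median log2 fold change of a chromosome relative to all genes lay between -0.11 on chromosome 18 and 0.14 on chromosome 5. On chromosome 5 each OE18 library against the mean of OE14 gave 0.16, 0.15 and 0.15, and on chromosome 18 they gave -0.11, -0.11 and -0.07.

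Both extremes came from the first part of the chromosome, a stretch picked by its values. From the start of each chromosome, placed genes were divided into 438 windows of 50 neighbouring tested genes. Windows held 21900 of the 22351 placed genes, and the last 451, too few on their chromosomes to fill a window, were in none. The 6 highest medians of all windows were the first 6 windows of chromosome 5, at 0.80 to 1.00 relative to all genes, and the seventh window there was at -0.05. In these 300 genes 133 were 2-fold or more higher in OE18 (44.3%) and 6 lower (2%), while in the other 1189 genes of the chromosome 164 were higher (13.8%) and 123 lower (10.3%). The median level of the 300 genes was 7.05 FPKM in OE18, 3.3 in OE14 and 5.04 in WT. The 3 first windows of chromosome 18 lay at -0.69, -0.59 and -0.43, and in their 150 genes 13 were higher (8.67%) and 43 lower (28.7%). Their median level was 9.17 FPKM in OE18, 11.9 in OE14 and 8.49 in WT. Outside these stretches both chromosomes had a median of -0.01 relative to all genes.

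Among the 429 other windows, the medians had an SD of 0.17 and ran from -0.45 to 0.53, and 3 were beyond 0.5 in size. These 3 windows, picked by their values, were all higher in OE18. On chromosome 4 the window of loci 113700 to 123200 had a median of 0.53, with 16 genes 2-fold or more higher and 3 lower. On chromosome 18 that of loci 87700 to 94900 had 0.52, with 18 higher and 0 lower, and 41 of its 50 genes lay above the median of all genes. On chromosome 12 that of loci 119900 to 130500 had 0.52, with 15 higher and 1 lower. The single OE18 libraries against the mean of OE14 gave 0.44 to 0.54, 0.51 to 0.58 and 0.51 to 0.59 in these windows. The median level in the chromosome 18 window was 10.4 FPKM in OE18, 5.29 in OE14 and 4.54 in WT. The lowest of the other windows, the last on chromosome 6 with loci 265300 to 275600, had a median of -0.45, with 3 higher and 10 lower.

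**Figure D5:**
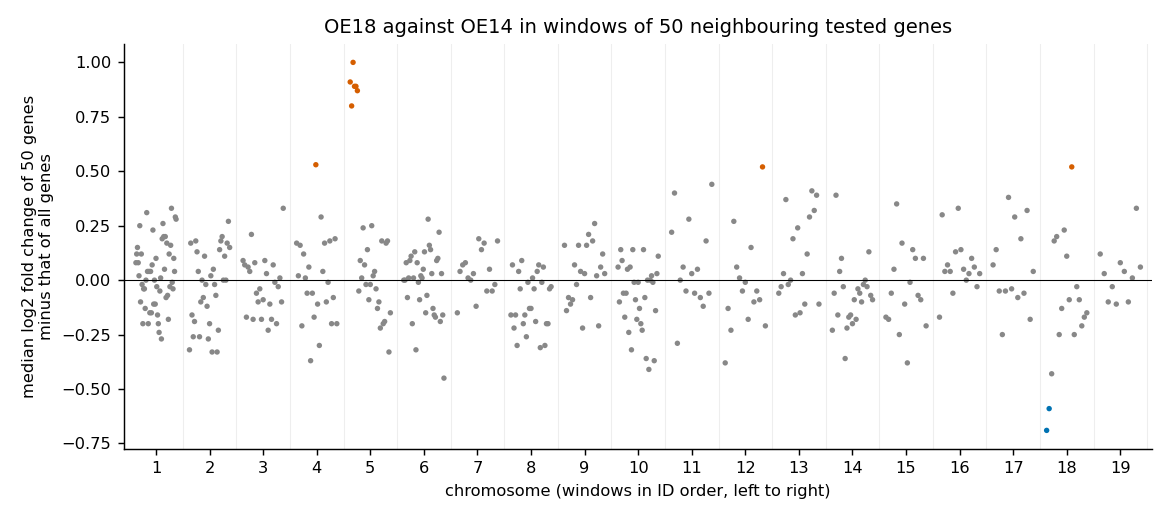
Each point is the median log2 fold change of OE18 over OE14 in a window of 50 neighbouring tested genes, minus that of all genes, with the 438 windows arranged by chromosome and in ID order. Windows beyond 0.5 are coloured. The first 6 windows of chromosome 5 lie at 0.80 to 1.00, above all others, and the first 2 windows of chromosome 18, at -0.69 and -0.59, lie lowest.

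Direct neighbours changed together somewhat more often than distant genes. Of the placed genes 2-fold or more higher in OE18, 20.6% were followed in ID order by another such gene, beside 16.2% of all placed genes, and 16.8% had another such gene 50 places on. Of those 2-fold or more lower, 15.5% were followed by another, beside 9.39% of all placed genes, and 9.81% had another 50 places on. Leaving out the starts of chromosomes 5 and 18 gave 19.6% for higher genes, beside 15.8% of the placed genes that remained, and 15.3% for lower genes, beside 9.36%. These shares were not tested, and neighbouring loci can be near-identical copies whose reads cannot be told apart. Runs of 4 or more neighbours that were all 2-fold or more higher numbered 33, of which 9 lay at the start of chromosome 5. Runs of 4 or more lower genes numbered 10. The longest run of lower genes held 7 loci on chromosome 2, numbers 81000 to 81800, with log2 fold changes of -3.13 to -1.47. Their mean levels were 1.97 to 34.3 FPKM in OE18, against 8.53 to 183 FPKM in OE14 and 3.06 to 324 FPKM in WT. The lengths of these 7 loci ran from 846 to 4391 bases. The longest run of genes 4-fold or more higher held 4 loci on chromosome 3, numbers 56900 to 57200, with log2 fold changes of up to 3.29. Their mean levels were 4.91 to 33.4 FPKM in OE18, against 0 to 2.53 FPKM in OE14 and 0 to 1.53 FPKM in WT. Both runs were picked by their values.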

How the data were processed

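RNA-seq values were deposited by the authors as FPKM, 1 column for each of 9 libraries. Bowtie2 2.2.3 and HISAT2 2.1.0 appear in the submitters' processing notes. How reads were counted, on which build and whether by strand is not given in the sources used here. Of the annotation only the form of the locus IDs is seen, which begin with Potri and end in v3.0. Read totals, gene lengths and reads were recovered from the FPKM steps: all 29005 genes above 0 in at least 2 libraries gave whole reads and a whole length within 1e-05 reads. The recovery and the test were checked on simulated data. Genes with 1 FPKM or more in at least 3 of 9 libraries entered a two-sided limma 3.58.1 test in R 4.3.3 on log2(FPKM + 1) with a variance trend. The 9 libraries shared the fit, which left 6 residual degrees of freedom. Benjamini-Hochberg adjustment covered all 22848 genes, with calls made under 0.05. Fold changes on this scale are smaller than the true ones at low levels. Loci were named by rule: largest fold among genes with a mean of 1 FPKM or more in both lines, and largest FPKM difference, called and without overlap. The table pairs no ID with a name, so 31 gene lists prepared by description were not applied and 2 rises and 2 falls are named. The comparison and its lists were chosen with earlier results of these data known. Alternatives changed the pseudocount, filter, scaling, libraries, replicate block and test, using limma voom on recovered reads.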

Additional observations from a re-analysis of the deposited data

How the results depend on the processing

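The 4 named loci kept their direction and their call under every alternative run, as did the larger number of rises than falls at 2-fold and 4-fold. Leaving out each OE18 or OE14 library in turn gave 16990 to 17222 called genes, 8529 to 8673 higher and 8404 to 8693 lower, 3669 to 3751 and 2146 to 2217 at 2-fold or more, and 1024 to 1056 and 284 to 302 at 4-fold or more. Rises and falls of at least 4-fold numbered 1815 and 635 under a pseudocount of 0.1, and 1913 and 675 under limma voom. With a mean of 5 FPKM or more, which leaves fewer genes to test, 5536 genes were called higher, 2162 were higher by 2-fold or more and 641 by 4-fold or more. Of all called genes, 44.6% were then higher. Loci on in OE18 and without a read in OE14 numbered 6 at 5 FPKM or more and 41 to 59 when a library was left out. Those on in OE14 and without a read in OE18 numbered 21 at 0.5 FPKM or more, 4 at 5 FPKM or more and 12 to 20 when a library was left out, with 17, 20 and 18 without OE18 library 1, 2 and 3. The chromosome 5 median relative to all genes was 0.15 after quantile normalization, 0.17 with a mean of 5 FPKM or more and 0.14 to 0.15 when a library was left out, and that of chromosome 18 was -0.08 with a mean of 5 FPKM or more and -0.13 to -0.09 when a library was left out. The lowest class by level had a median of 0.09 after quantile normalization, 0.23 after median-of-ratios scaling and 0.44 with a pseudocount of 0.1, and the ninth class had -0.08 after quantile normalization and -0.20 with a pseudocount of 0.1. Without the genes that passed the filter through 1 line alone, chosen after seeing the data, these classes had 0.06 and -0.15. In the lowest class that choice favoured a smaller value, as it took out 626 genes through OE18 and 85 through OE14. The share held by the 100 highest loci differed by 0.238 percentage points, OE18 minus OE14. It was -0.562 without OE18 library 3, within -0.562 to 0.825 when any library was left out, and -0.978 without the variable locus on chromosome 13, an alternative chosen after seeing the data. The cause of these changes was not tested. The replicate block over the 6 transgenic libraries gave 17738 called genes, against 17620 without it in the same libraries. Deviations from the line means of same-numbered libraries had correlations of 0.10, 0.06 and -0.02, so the numbers were not taken as pairs, and not every library correlated best with its own number. The gene lists could not be varied. At this depth, genes near 1 FPKM rest on few reads, and an absence means fewer than the limit of 3 reads over a group.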
